A study of Mus musculus with 22 samples.

Results

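The cells described here are the 2 retinal ganglion cells of mouse embryonic day (E) 14.5 in the series, named D8 and E1. They were set against the 6 ganglion cells of the stages on either side, E4, F3 and F6 of E12.5 and B1, B5 and C7 of E15.5. The whole series holds 22 single retinal cells. The question was which transcripts were present in both E14.5 cells and in none of the 6 flanking cells. A gene is called held in a cell when its array signal was 1000 or more. Of 18174 genes outside the crystallin and globin families, 117 were held in both E14.5 cells and in no flanking cell, which is 0.644% of the genes. They included Sox2, Notch1 and Foxn4 and 14 genes of DNA replication and mitosis. They also included 3 lens genes.

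Each cell was picked by pipette from a papain-dissociated retina, and its cDNA was amplified by PCR and hybridised to 1 Affymetrix mouse array. The labels give the CD1 strain for D8, E1, E4, F3, F6 and B1 and no strain for B5 and C7. No mutation, transgene or treatment is named for any of them, and no animal or litter. The study named cells only after profiling, so a ganglion cell marker is not independent evidence of the type. Cells of 1 stage may come from 1 animal, so each stage counts as 1 sample. No p-value is therefore given, and the genes held only in the E14.5 cells were themselves chosen by their signals, so their values are a description.

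Retinal progenitors are dividing cells that express Sox2, Lhx2, Six6 and Pax6 and keep their state through Notch signalling. Ganglion cells are the first neurons these progenitors make. A progenitor committed to this fate transiently expresses Atoh7, leaves the cell cycle and turns on neuronal genes such as Isl1, Tubb3 and the neurofilaments. In a dividing cell, replication genes are expressed around entry into S phase and mitotic genes in G2 and M phase. Values below are MAS5 signals, a linear intensity without a unit, or log2 differences, the mean of the E14.5 cells minus that of the flanking cells. Before log2 was taken, every signal below a floor of 200 was raised to it, and a signal of 200 or less is called at the floor.

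Depth of the profiles differed between cells. D8 held 3065 genes and E1 held 4078, against 2628, 3463 and 3575 in the E12.5 cells and 2457, 2441 and 1523 in the E15.5 cells. E1 therefore held the most genes of the 8 cells, and D8 lay within the range of the E12.5 cells. The part of this number in the results was not tested. The floor makes small signals equal, so a difference against cells at the floor depends on it. The rank correlation of D8 with E1 over the 7837 genes held in at least 1 of the 8 cells was 0.341. D8 correlated with the flanking cells at 0.218 to 0.351 and E1 at 0.211 to 0.309, as a description over genes of arrays with unequal numbers of genes held. The E14.5 cells were thus not closer to each other than D8 was to F3.

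Together the E14.5 cells shared 1910 held genes. Of these, 298 were held in all 6 flanking cells and 221 in exactly 1. The 117 held in none made up 6.13% of the shared genes. Many more genes were held in a single E14.5 cell and in no flanking cell, 457 in D8 and 732 in E1 when each was taken alone, the 117 counted in both. Without the E12.5 cell F6 the 117 became 178. The log2 difference of the 117 ran from 2.29 to 5.78 with a median of 3.81, and 67 of them were at the floor in all 6 flanking cells. In 45 of the 117 the signal was higher in E1 than in D8.

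**Figure D1:**
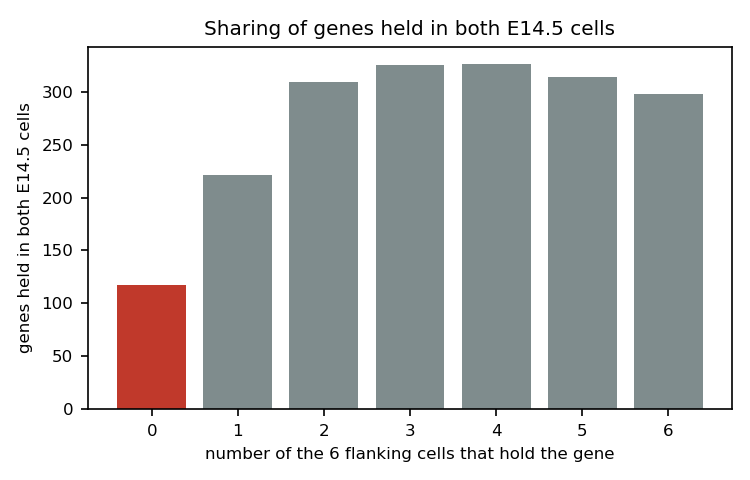
Number of genes held in both E14.5 ganglion cells (vertical axis) by how many of the 6 flanking ganglion cells also held them (horizontal axis). The red bar is the 117 genes held in no flanking cell, fewer than in each other class, which hold 221 to 326 genes.

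The progenitor transcription factor Sox2 had one of the 2 largest differences. Its signal was 9252 in D8 and 12986 in E1, against 88.07, 2.514 and 25.05 in the E12.5 cells and 9.455, 2.583 and 11.17 in the E15.5 cells. Both E14.5 cells were far above every flanking cell, all of them at the floor, and the log2 difference was 5.78. Sox2 was not particular to E14.5 in the series, since it was also held in the E16.5 amacrine cell, in 2 P0 amacrine cells and in 1 P0 photoreceptor.

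Notch1, the receptor through which neighbouring cells hold progenitors undifferentiated, had a signal of 5117 in D8 and 9186 in E1. The 6 flanking cells had 34.68 to 167.6, again all below the floor, and the log2 difference was 5.10. Another Notch1 probe set was held in none of the 8 cells, with 90.4 in D8 and 23.2 in E1. Notch1 was also held in both P0 photoreceptors, at 1860 and 14296, and in the adult rod, at 1149. Foxn4, a forkhead factor of progenitors that are biased towards amacrine and horizontal cells, had 2741 in D8 and 3012 in E1. The flanking cells had 11.59 to 152.1, and the log2 difference was 3.84. Foxn4 was held in none of the other 14 cells of the series, so D8 and E1 were the only cells of the 22 that held it.

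The promoters of 4 of the 117 genes are shown because each holds at least 1 element that was searched for. Sox2 is the progenitor factor among them, Ccnd3 encodes cyclin D3, Cdc6 loads the replicative helicase and Rrm2 makes the small subunit of ribonucleotide reductase. The windows are RefSeq promoters of build GRCm38.p6, from 250 bases before to 50 after the gene start, and capitals mark the matches named after them.
Sox2, chr3:34649745-34650044, + strand: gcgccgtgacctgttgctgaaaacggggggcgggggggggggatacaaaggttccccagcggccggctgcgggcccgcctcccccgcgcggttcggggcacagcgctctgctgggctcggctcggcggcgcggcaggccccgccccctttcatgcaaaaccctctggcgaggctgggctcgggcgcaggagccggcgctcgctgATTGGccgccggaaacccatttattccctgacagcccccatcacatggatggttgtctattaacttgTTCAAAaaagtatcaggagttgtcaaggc
Ccnd3, chr17:47593217-47593516, + strand: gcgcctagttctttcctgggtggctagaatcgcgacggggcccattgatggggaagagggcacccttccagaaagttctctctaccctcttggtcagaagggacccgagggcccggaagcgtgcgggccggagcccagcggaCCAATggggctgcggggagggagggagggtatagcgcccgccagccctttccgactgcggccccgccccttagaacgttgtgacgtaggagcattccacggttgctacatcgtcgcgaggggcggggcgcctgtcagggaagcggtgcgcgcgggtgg
Cdc6, chr11:98907901-98908200, + strand: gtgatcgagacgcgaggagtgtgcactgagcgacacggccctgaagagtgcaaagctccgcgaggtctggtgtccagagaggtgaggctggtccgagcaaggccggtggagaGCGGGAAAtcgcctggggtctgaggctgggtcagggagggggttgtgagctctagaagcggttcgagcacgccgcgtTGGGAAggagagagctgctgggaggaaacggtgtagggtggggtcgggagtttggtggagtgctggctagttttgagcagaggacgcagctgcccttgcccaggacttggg
Rrm2, chr12:24708004-24708303, + strand: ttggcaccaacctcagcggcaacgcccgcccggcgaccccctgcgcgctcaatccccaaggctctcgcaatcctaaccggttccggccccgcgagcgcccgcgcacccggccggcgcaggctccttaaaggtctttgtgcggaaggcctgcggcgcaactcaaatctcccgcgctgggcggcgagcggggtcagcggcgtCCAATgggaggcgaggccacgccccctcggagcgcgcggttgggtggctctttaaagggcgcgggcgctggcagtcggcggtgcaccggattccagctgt
Capitals mark CCAAT boxes in Sox2, Ccnd3 and Rrm2, which lie on the minus strand in Sox2. In Sox2 they also mark the cell cycle homology region (CHR), TTTGAA, on the minus strand. In Cdc6 they mark the E2F letters TTTCCCGC on the minus strand and the RBPJ letters TGGGAA, those of the DNA-binding partner of Notch.

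The search covered both strands for the E2F letters, which are TTTGGCGC or TTTCCCGC or TTTGCCGC or TTTCGCGC, and for the other elements, which are TTTGAA or CCAAT or TGGGAA. Of the 117 genes, 96 matched the RefSeq table, with 114 promoters. E2F letters were found in 8.77% of these promoters, against 2.26% of all 32851 promoters in the table and 3.2% of those of all measured genes. Among the 13 promoters of cell cycle genes in the set, 3 held E2F letters, those of Uhrf1, Cdk1 and Cdc6. The CCAAT box was in 39.5% of the promoters of the set, 69.2% of those of its cell cycle genes and 37.4% of all promoters. The CHR was in 15.8%, 38.5% and 17.9% of the same promoters, and in 13.4% of those of all measured genes, so the set lay between these backgrounds. Over all measured cell cycle genes, held or not, the shares were 19.3% for E2F, 68.7% for CCAAT and 41.0% for CHR, beside 23.1%, 69.2% and 38.5% for those of the set. RBPJ letters were in 17.5% of the promoters of the set, 25.6% of all promoters and 24.2% of those of all measured genes. A match describes these letters in this window and is not a measured site.

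The G1/S and replication list gave 6 of the 117 genes, Usp1, Rrm2, Uhrf1, E2f1, Ccnd3 and Cdc6. Usp1, a deubiquitinase that acts on the sliding clamp of replication and on Fanconi anaemia proteins, had 11943 in D8 and 10180 in E1. The E12.5 cells had 179.4, 44.55 and 198.7 and the E15.5 cells 5.127, 54.05 and 139.3, for a log2 difference of 5.78. The E14.5 cells lay well clear of the flanking cells, but 2 other Usp1 probe sets were held in none of the 8 cells. Usp1 was also held in 4 of the other 14 cells, with 22710 in the P0 amacrine cell D1.

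Rrm2, whose promoter is printed above, had 4815 in D8 and 6544 in E1. Its highest flanking signal was 149.9, in E4, and the log2 difference was 4.81. Another of its probe sets gave 3183.3 and 5738.2, with a highest flanking signal of 140.4, so a second probe set showed the same pattern. A further Rrm2 probe set was held in D8, at 1760.2, and not in E1, at 311.2. The P0 ganglion cell C6 also held Rrm2, at 4651. Uhrf1 recruits the maintenance DNA methyltransferase to replicated DNA. It had 4996 in D8 and 2329 in E1, a highest flanking signal of 106.4, and a log2 difference of 4.09. Another Uhrf1 probe set was held in none of the 8 cells, with 5.1 in D8 and 71.3 in E1.

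E2f1, the activator of S phase genes, had 4538 in D8 and 1940 in E1. The flanking cells had 9.398 to 282.1, and the log2 difference was 3.81. Another E2f1 probe set gave 4304.9 and 2484.3, but reached 1392.7 in a flanking cell, so that probe set would not have been in the set. Cyclin D3 (Ccnd3) had 1316 in D8 and 2987 in E1 over 15.64 to 143.2, a log2 difference of 3.31. Its other probe sets were held in none of the 8 cells, with at most 54.6 in D8 and 49.3 in E1. Cdc6 had 1782 and 1634 over 4.363 to 231.5, a log2 difference of 3.06, and was held in none of the other 14 cells. Of these 14 cells, 2 held E2f1, at 9332 and 8592, and 1 held Ccnd3, at 1253.

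The other measured genes of this list varied more between the 2 E14.5 cells. Of 46 measured genes, 19 were held in D8 and 27 in E1, against 9, 8 and 8 in the E12.5 cells and 6, 10 and 7 in the E15.5 cells. Both E14.5 cells therefore held more of the list than any flanking cell. The 6 genes of the set are part of the 19 and the 27 by the rule itself. The median log2 difference over all 46 was 1.46, beside 0.0 over all 18174 genes. Over the 38 held in at least 1 of the 8 cells it was 1.77, beside 0.24 over the 7837 such genes, but a gene could enter that number through an E14.5 cell alone. Without D8 this 1.77 became 3.07, and the medians of the 2 E14.5 cells over the same genes had an SD of 1.67.

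In 9 of the 38, both E14.5 cells were above all 6 flanking cells, which occurred in 4.59% of the 7837 genes. The 6 genes of the set are among the 9 by the way they were chosen, so this count is not independent of the rule. None of the 38 was below in both, which occurred in 0.587%. The 3 that were above without being among the 117 were Mcm10, Ung and Nasp. Mcm10, an initiation factor of replication, had 360.4 in D8 and 5778 in E1, with all flanking cells below the floor, so it was held in E1 alone. Nasp, a histone chaperone, had 7148 and 10314, with 4597 in F6 and 1867 in B1. The log2 difference of Nasp was 4.13, and -0.68 when only probe sets whose names mark no shared sequence were used.

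Several core replication genes did not separate the stages. Pcna, the sliding clamp, had 525.8 in D8 and 8996 in E1, within the flanking range of 111.7 to 10511 and with a log2 difference of -0.18. Cdk4 was held in all 8 cells, with 12277 in D8, 17991 in E1 and 8460 to 19183 in the flanking cells. Mcm2, a helicase subunit, had 3122 and 6863, below 11824 in B5 and 41023 in C7. The helicase subunits Mcm5 and Mcm6 were held in E1, with 5442 and 5934, and not in D8, with 40.51 and 6.847. Mcm4 was the reverse, with 3498 in D8 and 44.58 in E1. Which replication genes were held thus differed from 1 E14.5 cell to the other.

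The G2/M list gave 8 of the 117 genes. Tpx2, which assembles the spindle and activates Aurora A, had 15629 in D8 and 6502 in E1. The flanking cells had 190.4, 114.2 and 23.78 at E12.5 and 56.06, 28.13 and 31.47 at E15.5, for a log2 difference of 5.66. All flanking cells were below the floor, and Tpx2 was held in none of the other 14 cells. A second Tpx2 probe set was held in D8, at 1575.4, and not in E1, at 42.5.

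Cks1b, a small binding partner of cyclin-dependent kinases, had 15551 in D8 and 6334 in E1, with a highest flanking signal of 298.3 and a log2 difference of 5.54. A second Cks1b probe set showed the same pattern, with 6132.4 and 1877.2 over at most 114.2. Cks1b was also held in 4 of the other 14 cells, with 32706 in the P0 amacrine cell A4. Top2a, the topoisomerase that untangles sister chromosomes, was higher in E1, at 9516, than in D8, at 3942. Its highest flanking signal was 159.3, and the log2 difference was 4.94. The other Top2a probe sets were held in none of the 8 cells, with at most 15.5 in D8 and 47.0 in E1. Top2a was also held in 1 of the other 14 cells, the P0 amacrine cell D1, at 11507. Cdk1, the kinase that drives mitotic entry, also stood higher in E1, at 7545, than in D8, at 1744. Its flanking cells reached 334.3, and the log2 difference was 3.93. The adult rod also held Cdk1, at 1458.

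Racgap1, needed for cytokinesis, had 11728 in D8 and 3539 in E1. One flanking cell, B1, came close to the threshold at 933.8, while the other 5 were below the floor, and the log2 difference was 4.64. A second Racgap1 probe set gave 1164.2 and 4251.5 over at most 283.0, and a further one was at the floor in both E14.5 cells, at 1.1 and 2.2. Smc4, a subunit of condensin, had 8480 and 2864 over at most 554.0 in F6, a log2 difference of 4.38. The other Smc4 probe sets were held in none of the 8 cells. One of them gave 768.3 in D8 and 339.0 in E1, below a highest flanking signal of 806.0. Birc5, or survivin, a subunit of the chromosomal passenger complex, had 5620 and 2694 over at most 88.12, a log2 difference of 4.28. Cdca3, a trigger of mitotic entry, had 4299 and 3358 over at most 337.3, a log2 difference of 4.09. The other Cdca3 probe sets were held in none of the 8 cells, with at most 36.2 in D8 and 33.7 in E1. Birc5 was held in none of the other 14 cells, Smc4 in 1, and Racgap1 and Cdca3 in 2 each. The P0 ganglion cell C6 had 9952 for Racgap1, and the P0 amacrine cell D1 had 11778 for Cdca3.

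Over the 42 measured G2/M genes, 13 were held in D8 and 26 in E1. The flanking cells held 4, 1 and 4 at E12.5 and 3, 3 and 3 at E15.5, so both E14.5 cells were above all of them. The 8 genes of the set are part of the 13 and the 26 by the rule itself. Without them D8 would be only narrowly above E4 and F6. The median log2 difference over all 42 was 1.36. It was 2.02 over the 30 held in at least 1 of the 8 cells. Of these 30, 11 were above all flanking cells in both E14.5 cells and none below, which occurred in 4.59% and 0.587% of the 7837 genes. The 8 genes of the set are among the 11 by the way they were chosen. Without D8 this 2.02 became 3.64, and the medians of the 2 E14.5 cells had an SD of 2.32. Beside the 8 in the set, Ccna2, Ccnb2 and Mki67 were above in both E14.5 cells. The proliferation antigen Mki67 had 731.3 in D8 and 8637 in E1, with a highest flanking signal of 112.3. Cyclin A2 (Ccna2) had 6397 and 3001, narrowly above 2915 in F6. Cyclin B2 (Ccnb2) had 328.7 in D8 and 3933 in E1, with all flanking cells below the floor.

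Other G2/M genes were held in E1 and not in D8. Among them were the kinetochore genes Ndc80, at 3245 in E1 and 152.4 in D8, and Spc25, at 5084 and 10.28. Ect2, needed for the cleavage furrow, had 4049 in E1 and 25.1 in D8. Ube2c, an enzyme of the anaphase-promoting complex, was held in D8, at 3910, and not in E1, at 406.9, and the E15.5 cells B5 and C7 held it too. The number of mitotic genes held was thus higher in E1, which had the most genes held of the 8 cells.

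**Figure D2:**
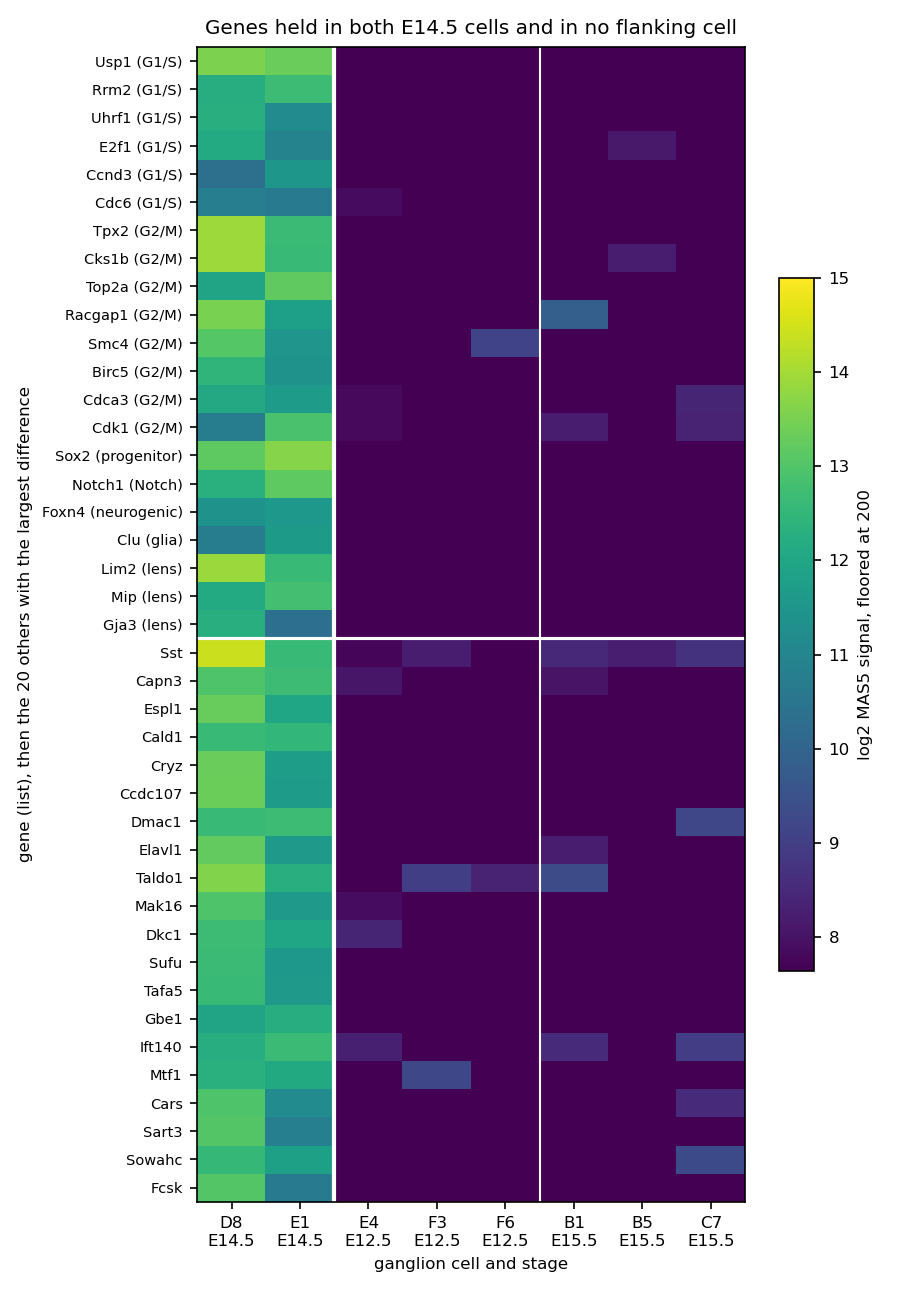
MAS5 signal (log2, floored at 200) in the 2 E14.5 cells and the 6 flanking cells, with 1 line per gene for the 21 genes of the set that are on a list, above the white line, and for the 20 others with the largest difference. The 2 left columns are bright throughout and the other 6 mostly at the floor, with Racgap1 in B1, at 933.8, the brightest flanking value drawn.

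The progenitor list was also held more in the E14.5 cells. Of 24 measured genes, 9 were held in D8 and 14 in E1, against 6, 4 and 5 at E12.5 and 5, 7 and 4 at E15.5. Sox2 is part of the 9 and the 14 by the rule itself. The median log2 difference was 1.10 over all 24 and 1.91 over the 16 held in at least 1 of the 8 cells. Without D8 this 1.91 became 3.13, and the medians of the 2 E14.5 cells had an SD of 1.83. Sox2, Id3 and Lhx2 were above all flanking cells in both E14.5 cells. Id3, an inhibitor of bHLH factors, had 9981 in D8 and 12802 in E1, with flanking signals from 3.74 to 5510 and a log2 difference of 4.25. Lhx2, a LIM homeodomain factor of the eye field, had 7956 in E1 and only 331.8 in D8, with all flanking cells at or below 14.67.

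Other progenitor genes overlapped with the flanking stages. Sfrp2, a secreted Wnt modulator, had 1646 in D8 and 15040 in E1 but also 4984 in B5. Fgf15, a growth factor of progenitors, was held in E1, at 15139, and in E4 and F6 of E12.5, at 6604 and 4628, but had 396.6 in D8. Cyclin D1 (Ccnd1), the main D cyclin of the retina, had 14018 and 21070 but reached 29883 in C7. Six6 had 1994 in D8, within the flanking range of 52.01 to 2926, and 3484 in E1, above it. Pax6 went the other way. It is expressed in progenitors and kept on in ganglion cells, and it had 14317 in D8 and 12282 in E1, below all flanking cells at 15612 to 41061, with a log2 difference of -0.79.

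Among the measured Notch pathway genes, Notch1 stood alone in the set. Of 25 genes, 6 were held in D8 and 8 in E1, and 3 to 7 in the flanking cells. The median log2 difference was 0.14 over all 25 and 0.85 over the 16 held in at least 1 of the 8 cells, 10 of them positive and 6 negative. The target gene Hes5 was held in neither E14.5 cell, with 1.489 in D8 and 166.9 in E1, and only in B5 of the flanking cells, at 8700. The coactivator Maml1 had 3380 in D8 and 204.9 in E1, with all flanking cells below the floor. Rbpj had 751.4 and 2592 and reached 52578 in C7, a log2 difference of -1.52. The ligands Dll1 and Dll3 were held in neither E14.5 cell.

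The neurogenic list likewise overlapped between stages, with 9 of 29 measured genes held in D8 and 15 in E1 against 5 to 11 in the flanking cells. Atoh7, the bHLH factor required for ganglion cell genesis, had 2777 in D8 and 3743 in E1. At E12.5 it had 94.65, 40.55 and 114.2, and at E15.5 18.85, 2112 and 12.5. B5 was thus the only flanking cell that held it, and the log2 difference was 3.44. After quantile normalization of the arrays the log2 difference of Atoh7 was -0.11. Btg1, an antiproliferative factor, had 5752 and 5507, above flanking signals of 37.83 to 3116, with a log2 difference of 2.74. Neurog2, another proneural factor, had 950.3 and 1088, below 2524 in E4 and 3080 in B1. Sox4 and Sox11, which are on in newborn neurons, were held in all 8 cells, with log2 differences of -0.60 and -0.05.

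The Wnt and hedgehog list, of pathways that act in the growth of the progenitor pool, gave none of the 117. Sufu, an inhibitor of hedgehog signalling described below, was in the set but is not on this list. Of 22 measured, 5 were held in D8 and 9 in E1, against 1 to 5 in the flanking cells, and the median log2 difference over all 22 was 0.0. List genes held in E1 and in neither D8 nor a flanking cell included the hedgehog receptor Ptch1, at 1633 against 46.71 in D8, and its effector Gli3, at 1225 against 47.09. Shh, the hedgehog ligand that ganglion cells secrete, was at the floor in both E14.5 cells and had 17771 in E4. Of 17 stress and immediate early genes, D8 held 3 and E1 held 2, against 2 to 4 in the flanking cells. Their median was -0.03, and -0.93 over the 8 held in at least 1 of the 8 cells. Fos was at the floor in both E14.5 cells.

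Ganglion cell markers were held in the E14.5 cells as often as in the flanking ones. Of 19 measured markers, D8 held 12 and E1 held 13, against 10, 14 and 12 at E12.5 and 11, 13 and 12 at E15.5. None was above or below all flanking cells in both E14.5 cells. The median log2 difference was -0.28 over all 19 and -0.51 over the 16 held in at least 1 of the 8 cells, the latter -0.18 without E1 and -0.79 without B1. Sncg, encoding gamma-synuclein, had 26663 in D8 and 14204 in E1, against 35925 to 41475 at E12.5 and 37905, 37834 and 18272 at E15.5. Its D8 signal lay within the flanking range and its E1 signal below it, with a log2 difference of -0.81. Nefl and Nefm, the light and medium neurofilaments, had differences of -0.20 and -0.40, inside the flanking range in both cells.

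Isl1, the LIM homeodomain factor of ganglion cells, had 3030 in D8 and 8513 in E1. The E12.5 cells had 5410, 8034 and 12884 and the E15.5 cells 15027, 40604 and 67555, and the log2 difference was -1.73. E1 was within the E12.5 range and both were below all E15.5 cells. Ebf3, an early B cell factor family member of ganglion cells, had 22186 and 7222 against 15059 to 37828 in the flanking cells, a difference of -1.02. Pou4f1, which marks a part of the ganglion cells, was held in D8, at 2092, and not in E1, at 64.24. Elavl4, an RNA-binding protein of neurons, had 8867 and 14759 within a flanking range of 821.5 to 18434.

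Genes of postmitotic neurons were held at similar numbers, and most of them at lower signals. D8 held 22 and E1 held 20 of 24, against 16 to 23 in the flanking cells. The median log2 difference over all 24 was -0.65. Of the 23 held in at least 1 of the 8 cells, 19 had a negative difference and 4 a positive one. Syt4, at 1.56, and Rtn1, at 1.52, were among the positive ones. In 5 of the 23 held in at least 1 of the 8 cells, both E14.5 cells were below all flanking cells, Tubb3, Crmp1, Dpysl3, Gng3 and Uchl1. Such genes made up 0.587% of the 7837.

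Neuron-specific tubulin, Tubb3, had 30072 in D8 and 25994 in E1. The flanking cells had 42556, 48619 and 36042 at E12.5 and 48719, 83395 and 142213 at E15.5, a log2 difference of -1.08. Dpysl3, a cytoskeletal protein of growth cones, had 5247 and 3191. Its E12.5 signals of 5605 to 6940 lay just above, and its E15.5 signals of 34823 to 44153 far above, for a difference of -1.95. Crmp1, of the same family, differed by -1.29 and Gng3, a G protein subunit of neurons, by -1.15. Uchl1, a neuronal ubiquitin hydrolase, differed by -0.96.

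The housekeeping genes with high signals were lower too. Of 12 measured, the median log2 difference was -0.52, with Actb at -0.88, Gapdh at -0.48 and Eef1a1 at -0.73. Pgk1, a glycolytic enzyme, had 10476 and 8859, below all flanking cells at 10770 to 30471, and a difference of -0.79. With the E13.5 cell counted as a further flanking stage, the log2 difference of Pgk1 was 0.91. The E15.5 cells had the highest Actb signals, 67707 to 122587, against 22770 to 34487 at E12.5 and 27744 and 24295 at E14.5. The part of these high E15.5 signals in the neuronal differences was not tested.

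**Figure D3:**
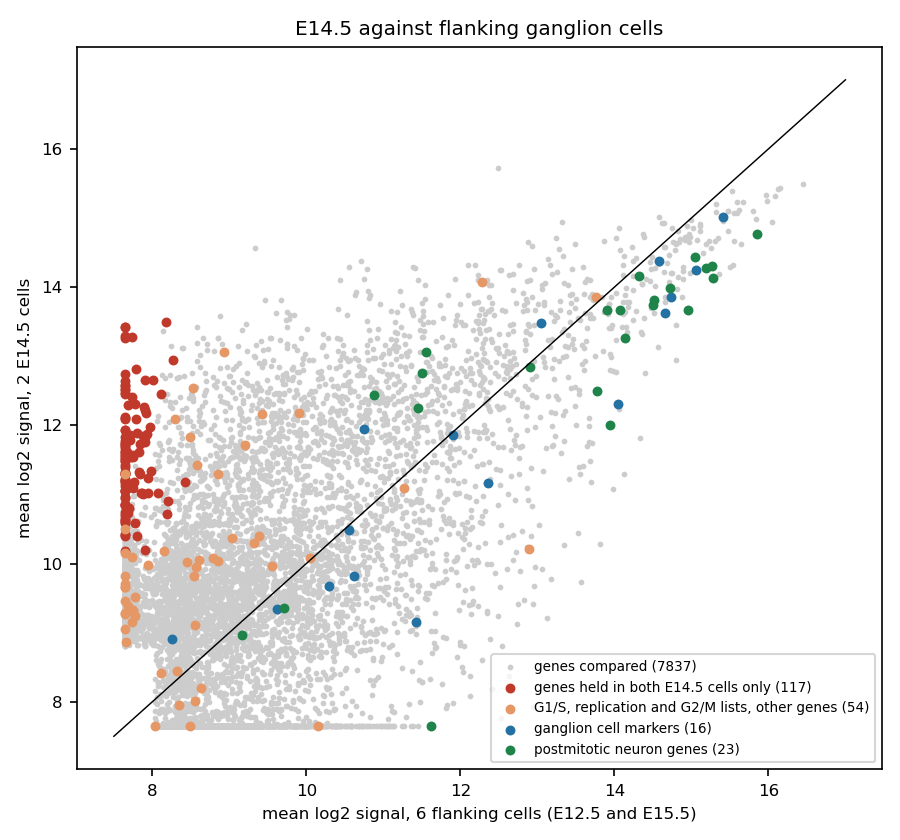
Mean log2 signal of the 2 E14.5 cells (vertical axis) against the mean of the 6 flanking cells (horizontal axis) for the 7837 genes held in at least 1 of the 8 cells, with the line of equality. The 117 genes in red lie at the left edge by the way they were chosen, other cell cycle genes lie mostly above the line, and 19 of the 23 postmitotic neuron genes and 13 of the 16 ganglion cell markers lie below it.

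Lens transcripts moved with the E14.5 cells as well. The lens is the transparent tissue in front of the retina, and its fibre cells are filled with crystallins. Of 23 measured lens genes, D8 held 14 and E1 held 16, and no flanking cell held any. Both E14.5 cells held the same 14, of which 11 are crystallins and so were set aside before the 117 were counted. The summed lens signal was 296368 in D8 and 318149 in E1 and 1025 to 2022 in the flanking cells. Over all 23 the median log2 difference was 4.97, the largest of the 18 lists. Alpha A crystallin, Cryaa, had 28896 in D8 and 34776 in E1 and at most 197.2 in a flanking cell. Of the other cells of the series, only the E13.5 ganglion cell held Cryaa, at 5861.

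Of the 117 genes, 3 are fibre cell membrane genes of that list. Lim2, a membrane protein of the fibres, had 15208 in D8 and 6345 in E1, at most 122.8 in the flanking cells, and a log2 difference of 5.62. Mip, the lens water channel, had 4482 and 7182 over at most 76.1, a difference of 4.83. A second Mip probe set was held in E1, at 6745.4, and not in D8, at 18.7. Gja3, a lens connexin, had 5037 and 1297 over at most 76.35, a difference of 3.68. Another Gja3 probe set was at the floor in both E14.5 cells, at 66.6 and 128.2. By the probe sets read here, none of these 3 lens genes was held in another cell of the series. Capn3, a calpain with a form made in lens, was in the set too, with 7994 in D8 and 6538 in E1 and at most 274.9 elsewhere among the 8. Foxe3, the factor of lens epithelium, was below the floor in both E14.5 cells, at 39.45 and 81.18. Lens and cell cycle transcripts were thus high in the same 2 cells, and the part of lens RNA in the 117 genes was not tested.

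Markers of other cell types were mostly at or near the floor in D8 and E1. None of 12 microglia and immune markers, 12 pigment epithelium markers and 13 amacrine and horizontal markers was held in either. Their summed signals were 671 and 679, 472 and 410, and 875 and 1152, against flanking ranges of 408 to 1326, 409 to 970 and 528 to 10850. Vascular markers had 1 of 13 held in each E14.5 cell, Cldn5 at 1540 in D8 and Kdr at 1368 in E1. Of 12 photoreceptor markers, D8 held none and E1 held 3, Crx at 3612, Prdm1 at 2430 and Otx2 at 1156. E1 thus also carried transcripts of photoreceptor precursors, while the phototransduction genes Sag and Rcvrn were below the floor in both E14.5 cells. Crx and Prdm1 reached at most 131.6 and 163.0 in a flanking cell. Otx2 was higher in E4, at 1775, than in E1, and F6 held another marker of this list, Rxrg, at 6293.

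Müller glia express many progenitor genes. Of 12 measured Müller glia markers, each E14.5 cell held 5 and the flanking cells 2 or 3, and the median log2 difference over all 12 was 0.0. Vim, an intermediate filament of progenitors and glia, overlapped between the stages, with a log2 difference of -0.18. Clu, a secreted chaperone of that list, was in the set, with 1732 in D8 and 3201 in E1 over at most 192.8, a log2 difference of 3.56. Another 2 Clu probe sets showed the same pattern. Glutamine synthetase, Glul, had 5739 and 5519 over 118.7 to 3455. Red blood cell genes separated the stages otherwise, with 3 of 14 held in D8, 6 in E1, 1 in each E12.5 cell and 4 or 5 in the E15.5 cells. Embryonic Hbb-y had 23952 in D8 and 14387 in E1, between the E12.5 cells, all below the floor, and the E15.5 cells at 60350 to 138505.

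The 20 genes off the lists with the largest differences were of mixed function. Sst, which encodes the neuropeptide somatostatin, had 21583 in D8 and 6186 in E1. Its flanking signals ran from 140.0 to 418.3, so most of them were above the floor, and the log2 difference was 5.32. Espl1, the protease separase that splits sister chromatids, had 10001 and 4060 over at most 135.1, a difference of 4.99. It was held in none of the other 14 cells. Sufu, an inhibitor of hedgehog signalling, had 6502 and 3046 over at most 34.61, a difference of 4.48.

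Cald1, an actin-binding protein, had 6281 and 5837 over at most 55.62, a difference of 4.92. Elavl1, a widely expressed RNA-binding protein, had 9543 and 3117 over at most 292.4, a difference of 4.68. Of the other Elavl1 probe sets, 2 were held in a flanking cell and in neither E14.5 cell, one with 64.2 in D8 and 54.5 in E1 and up to 8894.4 in a flanking cell. Cryz, named zeta crystallin but a quinone reductase, had 10123 and 3415 over at most 144.2, a difference of 4.88. Dkc1, the pseudouridine synthase of ribosomal RNA, had 6530 and 3971 over at most 335.7, a difference of 4.55. The metabolic enzymes Taldo1 and Gbe1, of the pentose phosphate pathway and of glycogen synthesis, differed by 4.67 and 4.45. The cilium gene Ift140 and the metal-responsive factor Mtf1 differed by 4.33 and 4.31. Another Mtf1 probe set had 43.3 in D8 and 13.2 in E1 and up to 3527.0 in a flanking cell. The remaining 9 were Ccdc107, Dmac1, Mak16, Tafa5, Cars, Sart3, Sowahc, Fcsk and Capn3, at 4.19 to 5.03.

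Further genes of DNA replication, repair and chromosome segregation were in the set without being on a list. They are named here after their values were seen. Pclaf, which binds the replication clamp, had 2319 in D8 and 2739 in E1 over at most 124.3. The checkpoint kinase Atr had 1579 and 1488 over at most 200.9. Npat, which activates histone genes, had 1465 and 6687 over at most 396.8. Cenph, a centromere protein, had 1846 and 1587 over at most 148.6.

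Near the threshold the set shaded into genes of similar pattern. Just inside were Ppp1r12a, at 1030 in E1, Nr2f1, at 1040 in D8, Rnaseh2b, at 1045 in E1, Rasl11b, at 1046 in E1, and BC052040, at 1052 in E1. Just outside were Marveld1, Dennd4c, Tmem98 and Wdr90, which missed it in E1 with 985.2, 975.3, 971.1 and 962.3. Krr1 missed it because F3 had 1034.

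A gene is often covered by several probe sets, and each gene was read from the one that was brightest on average in the series. Of the 117 genes, 82 had at least 1 other probe set, 162 in all. Of these probe sets, 102 were held in none of the 8 cells and 26 in 1 E14.5 cell and no flanking cell. The same pattern appeared in 19, belonging to 17 genes, among them Cks1b, Rrm2, Racgap1, Clu and Capn3. A flanking cell held 15 of them.

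In the opposite direction only 5 of the 18174 genes, 0.0275%, were held in all 6 flanking cells and in neither E14.5 cell. Nsdhl, an enzyme of cholesterol synthesis, had 292.1 in D8 and 31.76 in E1, against 3370 to 14153 in the flanking cells, a log2 difference of -5.03. Dapk1, a death-associated kinase, had 643.4 and 720.5 against 2632 to 24937, a difference of -3.53. Ttc28, Cldnd1 and Myo1h differed by -4.27, -3.93 and -3.51. This count asks for 6 cells to hold a gene and the count of 117 asks for only 2, so the numbers are not on 1 scale. The count moved with single cells, to 20 without D8, 25 without E1, 16 without C7, 12 without B5 and 8 without E4 or B1.

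For comparison, the flanking stages were counted by a looser rule, held in at least 2 of their 3 cells and in none of the other 5. It gave 269 genes, 1.48%, for E12.5 and 87 genes, 0.479%, for E15.5. The rule for E14.5, which asks for both of 2 cells and none of 6, is stricter, so these counts are not on 1 scale with the 117 genes, 0.644%, of E14.5.

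Beyond the 8 cells, the cell cycle and progenitor genes were held most often at E14.5 when the genes of the set were counted. Of the 111 measured genes of the progenitor, G1/S and G2/M lists, D8 held 40, or 36.0%, and E1 held 66, or 59.5%. The 6 flanking cells held 13 to 19, or 11.7% to 17.1%. Among the other 14 cells, the P0 photoreceptor H1 came nearest with 29, or 26.1%, while the E13.5 ganglion cell held 15. H1 held 15 of the 24 progenitor factors, 1 more than E1, but 3 of the 42 G2/M genes. No cell outside E14.5 held more than 7 of the G2/M genes, the number in the adult rod. As a share of all genes held in the cell, these genes made up 1.31% in D8 and 1.62% in E1. This share was 0.375% to 0.854% in the flanking cells and 0.957% in H1. Sox2, 6 G1/S genes and 8 G2/M genes among the 111 were chosen as held in D8 and E1 and in no flanking cell. They therefore raise the counts and shares of D8 and E1 against the flanking cells by the rule itself. The P0 photoreceptor H1 held only Sox2 and E2f1 of them. With these genes left out, D8 would hold fewer of the list than H1, and E1 would still hold more than any other cell.

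Of the 117 genes, 22 were held in none of the other 14 cells, 80 in 1 to 4 and 15 in 5 or more. A median of 2 of these cells held a gene of the set, against 4 for a gene held in at least 1 of the 8 cells. The P0 ganglion cell F1 held the most, 34 of the 117, and the P0 amacrine cell A4 the fewest, 10. F1 was also the cell with the most genes held, 4330. The E13.5 ganglion cell held 20.

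**Figure D4:**
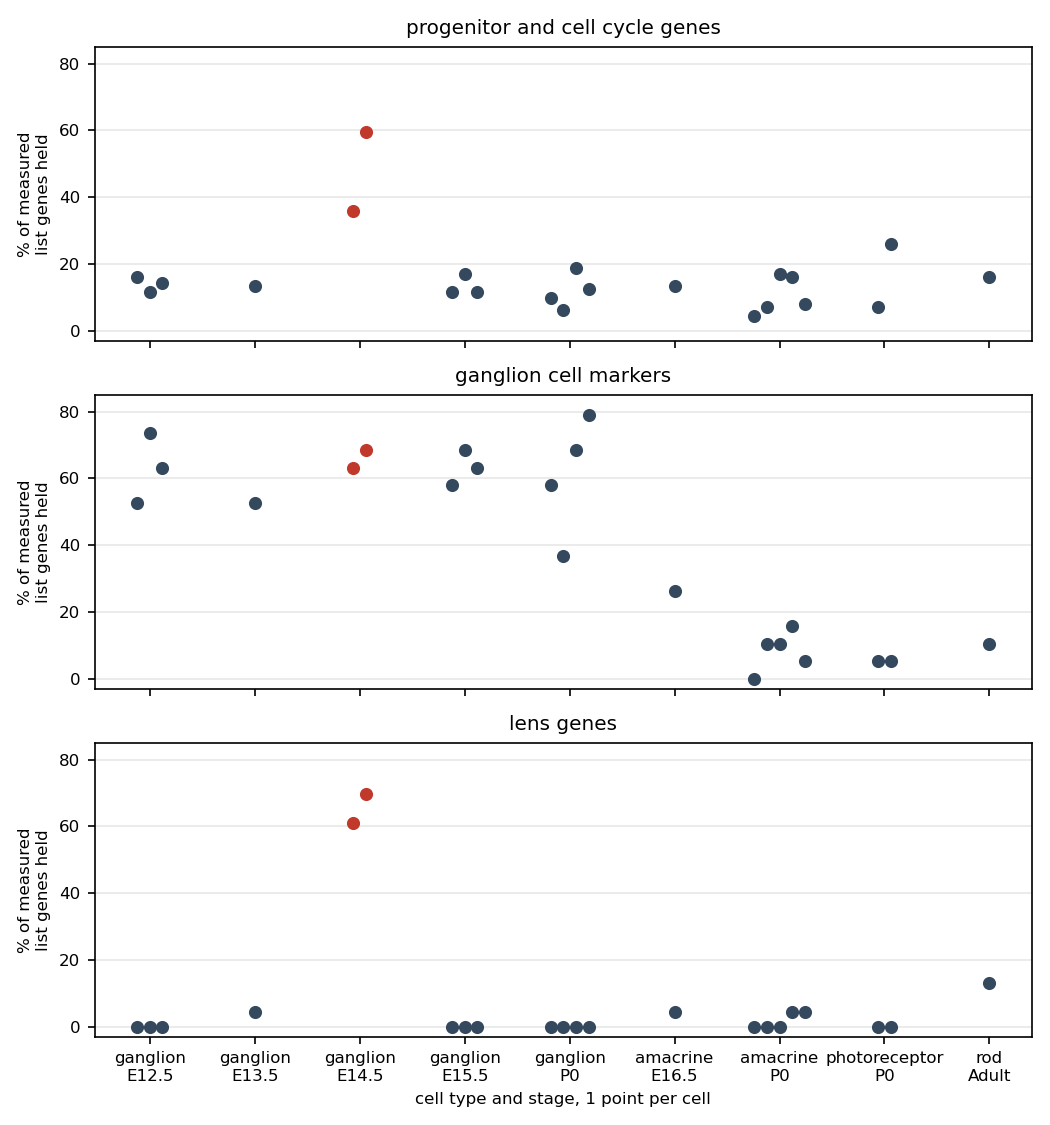
Share of measured genes held (vertical axis, %) in each of the 22 cells, by cell type and stage, for progenitor and cell cycle genes, ganglion cell markers and lens genes, with the E14.5 cells in red. D8 and E1 lie above all other cells in the top panel, at 36.0% and 59.5%, and in the bottom panel, and within the other ganglion cells in the middle panel. The top and bottom panels include genes of the set, which were chosen as held in D8 and E1 and in no flanking cell. Without them D8 would lie below the P0 photoreceptor H1 in the top panel.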

How the data were processed

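The authors' deposited values are MAS5 signal intensity on a linear scale, 1 array per cell, per the labels and the submitters' processing notes; no detection calls were used. On 21 of 22 arrays the 2% trimmed mean was 500; the P0 amacrine cell B1 was multiplied by 27.6 to match. Of 45101 probe sets, 34958 had 1 gene symbol, 932 several and 9211 none, in GEO's platform annotation, and 34754 were matched by gene number to RefSeq. The brightest probe set on average represented each of 18194 genes, of which 20 crystallins and globins were set aside.

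Signals were raised to 200 and log2 transformed (python 3.11.15, numpy 2.4.6, pandas 2.3.3, scipy 1.17.1). Held means 1000 or more (log2 9.97). With 1 sample per stage no test was made. Precision is limited by how few arrays each stage has. The counting was checked on made-up tables with known answers.

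The E14.5 contrast, the members and the 18 gene lists were chosen with earlier results of these data known. Named were all genes of the set on a list, its 20 others with the largest differences, up to 6 more per list, up to 10 of the opposite direction, and 5 on each side of the threshold. Some listed genes were not analysed here. Alternatives covered the floor, the threshold, quantile normalization, probe set choice, the E13.5 cell and leaving out each cell.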

Additional observations from a re-analysis of the deposited data

How the results depend on the processing

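After quantile normalization 75 genes were held in both E14.5 cells and in no flanking cell, of which 62 were among the 117, and 13 genes were held the opposite way. Leaving out single cells gave 135 to 732 genes and, the opposite way, 6 to 25. The opposite count was 3 with the E13.5 cell added and 16 when held meant the 3000 highest genes of a cell, a setting chosen after seeing the data. The first count was 166 at a threshold of 500, 89 at 2000, 97 with the E13.5 cell added and 78 among the 3000 highest genes. Of its 21 genes on a list, 15 to 21 were kept under every setting tried. The medians of the progenitor, G1/S, G2/M and ganglion cell lists kept their sign under every alternative run. Of the values of named genes, 1122 moved by less than the spread between cells, 667 moved by more and 3 changed sign among genes whose cells did not overlap. The log2 difference of Atoh7 was -0.11 after quantile normalization, the log2 difference of Nasp -0.68 with only probe sets marked as unshared, and the log2 difference of Pgk1 0.91 with the E13.5 cell added; the cause was not tested. No paired analysis was possible because the labels number no replicates and name no animal. With 2 cells, 1 array each and no detection calls, signals under 200 have no order here, and absence of a transcript cannot be told apart from its loss in amplification.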
